A study of Mus musculus with 10 samples.

Results

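The genes of 8 matricellular proteins (tenascin C, Tnc; periostin, Postn; thrombospondins 1 and 2, Thbs1 and Thbs2; SPARC, Sparc; SPARC-like 1, Sparcl1; osteopontin, Spp1; and versican, Vcan) and of fibronectin (Fn1) were followed in mouse lung after hyperoxia from birth. These 9 genes were chosen by name, and each was measured by all probe sets whose platform annotation gives exactly that symbol. Of the 9 genes, 8 had such a probe set, among 18193 genes of the array, and Spp1 was not analysed here. The 8 genes had 22 probe sets, of which the brightest of each gene by its mean over 10 arrays leads and the others serve as a check. A filter kept genes that reached log2 5 on 2 arrays or more, which all 8 measured genes and 14988 of the 18193 genes did.

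Whole lungs of ICR mice were dissected at postnatal day 14 (P14) or 29 (P29), and total RNA was hybridised to Affymetrix arrays. Pups were allocated at random soon after birth to 80% oxygen or to room air for 14 or 29 days, and the dams changed exposure daily. The 4 groups were P14 room air (2 arrays), P14 hyperoxia (3 arrays), P29 room air (2 arrays) and P29 hyperoxia (3 arrays). Hyperoxia mice are titled BPD, for bronchopulmonary dysplasia, a lasting lung disorder of babies born early and treated with oxygen, and room-air mice are titled WT; no mutation or other agent is named for any group. The labels do not say whether an array holds RNA of 1 mouse or of several, or whether arrays of a group are separate animals, so a p-value here rests on differences among these arrays alone, and those may be technical.

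Matricellular proteins are secreted into the extracellular matrix but act mainly as signals and regulators of cell adhesion, growth factor release and fibre assembly rather than as load-bearing fibres. Some of them are abundant while the lung builds its alveoli, decline as it matures, and return in injured or fibrotic tissue. Fibronectin is the adhesive glycoprotein on which many of them assemble and which integrins bind.

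The upstream sequences of 4 members are shown because Tnc, Vcan and Thbs2 had the widest gaps in hyperoxia effect between the ages, and Sparc is a member in which that gap did not pass the test. RefSeq promoter windows of mouse build GRCm38.p6 matched 6 of the 9 genes (Tnc, Postn, Thbs2, Sparc, Spp1 and Vcan). Each line gives the 250 bases before the gene's start, 5′ to 3′ on the gene's strand, and capitals mark matches, on either strand, to a TATA box (TATAAA), a GC box (GGGCGG) or a SMAD element (CAGACA).
Tnc: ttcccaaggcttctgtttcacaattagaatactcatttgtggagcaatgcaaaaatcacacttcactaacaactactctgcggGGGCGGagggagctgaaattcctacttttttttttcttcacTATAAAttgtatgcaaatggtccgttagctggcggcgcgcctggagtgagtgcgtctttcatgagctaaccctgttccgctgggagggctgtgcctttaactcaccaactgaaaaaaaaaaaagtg
Vcan: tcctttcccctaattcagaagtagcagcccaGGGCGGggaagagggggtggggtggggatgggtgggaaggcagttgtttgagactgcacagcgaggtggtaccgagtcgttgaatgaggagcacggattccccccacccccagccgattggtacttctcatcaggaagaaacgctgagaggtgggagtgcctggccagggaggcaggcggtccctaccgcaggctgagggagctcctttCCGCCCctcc
Thbs2: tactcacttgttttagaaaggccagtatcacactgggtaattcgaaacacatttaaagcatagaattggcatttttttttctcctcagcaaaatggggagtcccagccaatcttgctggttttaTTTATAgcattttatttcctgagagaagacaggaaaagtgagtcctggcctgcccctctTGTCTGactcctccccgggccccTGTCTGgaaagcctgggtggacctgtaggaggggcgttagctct
Sparc: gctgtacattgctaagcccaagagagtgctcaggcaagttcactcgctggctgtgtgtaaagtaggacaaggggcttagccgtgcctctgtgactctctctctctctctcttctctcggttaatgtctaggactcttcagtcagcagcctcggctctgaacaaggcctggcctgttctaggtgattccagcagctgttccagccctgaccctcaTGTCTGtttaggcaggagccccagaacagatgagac
The windows lie at chr4:64047016-64047265 (Tnc), chr13:89742513-89742762 (Vcan), chr17:14694263-14694512 (Thbs2) and chr11:55420081-55420330 (Sparc), all on the minus strand. Tnc held a TATA box 126 to 121 bases before the start and a GC box farther upstream. Thbs2 held a TATA box in reverse orientation, also 126 to 121 bases before the start, and 2 SMAD elements. Vcan held 2 GC boxes, and Sparc held 1 SMAD element 36 to 31 bases before its start. The TATA box was found in 3 of the 6 member windows and in 13% of 27025 windows of the same length, the SMAD element in 3 of 6 and 17.1%, and the GC box in 2 of 6 and 33%. The AP-1 site TGANTCA (6.85% of all windows), the TEAD site GGAATG (12.6%) and the CArG box (1.41%) were found in 0 of the 6. The counts of 3 for the TATA box and the SMAD element each include Spp1, which was not measured. None of the marked matches overlap, and these are letter matches only.

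Lung markers were present on every array, with the mean log2 value of 6 alveolar type 2 markers between 11.58 and 12.79. Arrays of the same group correlated at 0.993 to 0.996 over genes, and those from unlike groups at 0.935 to 0.983. The difference between the 3′ and 5′ actin control probe sets, which widens when RNA is degraded or copied incompletely, was 0.32 to 0.74 on the 4 room-air arrays and 1.33 to 2.21 on the 6 hyperoxia arrays. Xist and Y-linked transcripts showed the male pattern on all 5 P14 arrays and the female pattern on both P29 room-air arrays. At P29 in hyperoxia, replicate 1 was male, replicate 2 female and replicate 3 carried both kinds of transcript. The actin difference therefore moved with oxygen. The sex pattern moved with age in room air, and at P29 it also differed between room air and hyperoxia. The part of the actin difference in the results was not tested beyond a fit that holds it as a term. Its values did not overlap between room-air and hyperoxia arrays, so that fit cannot cleanly separate it from oxygen. The part of the sex pattern was not tested beyond a fit with Y-linked level as a term and a P29 fit with the female hyperoxia array alone. The 10 arrays limit the precision of every value.

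**Figure D1:**
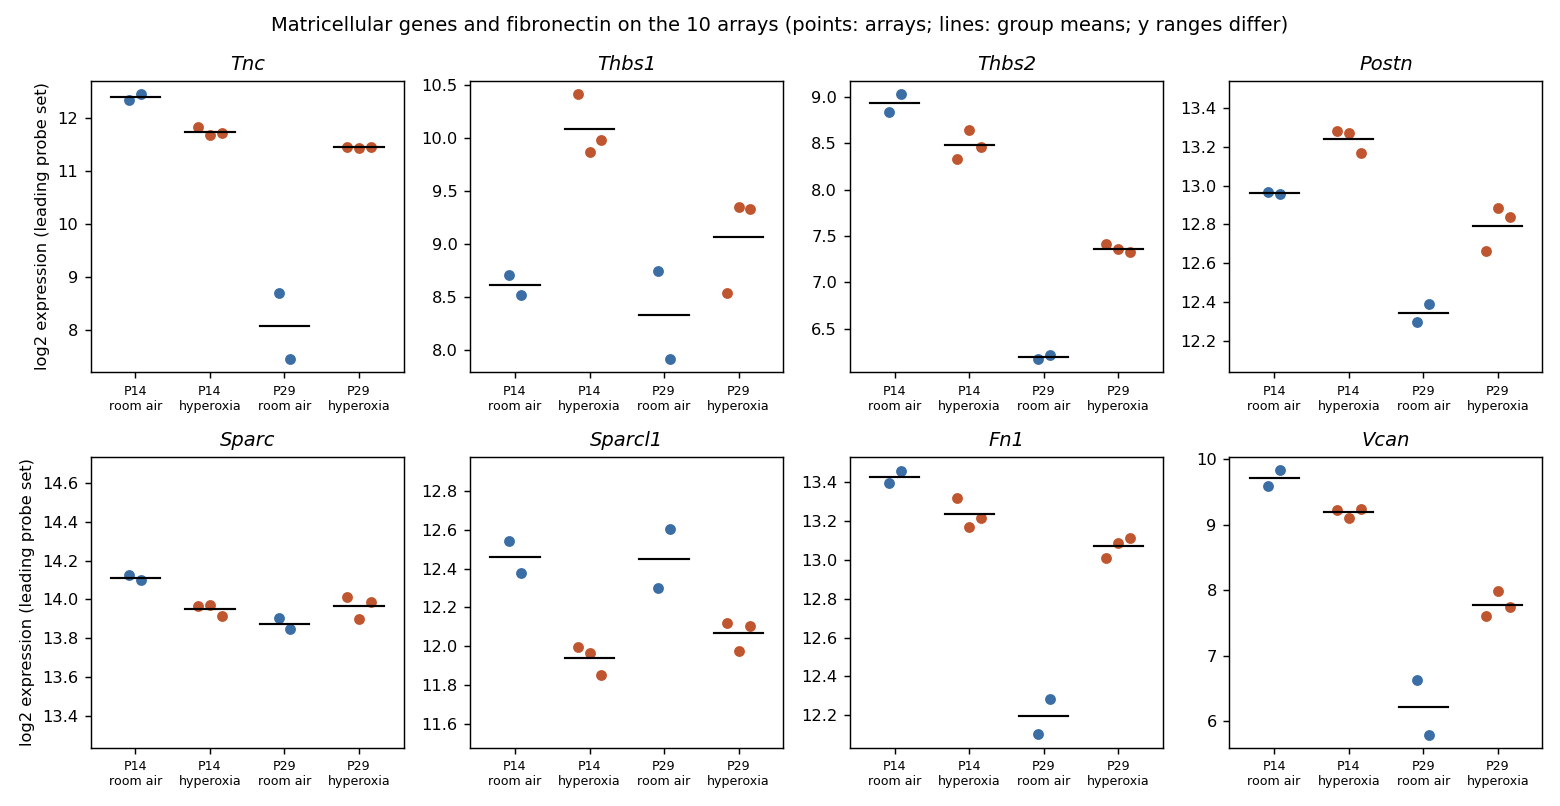
Log2 expression of the leading probe set (vertical axis, its range differing by panel) of 8 genes on each of the 10 arrays (points) in the 4 groups, with group means as lines. Tnc, Thbs2, Fn1 and Vcan are lowest on the 2 P29 room-air arrays, and Thbs1 is highest on the 3 P14 hyperoxia arrays.

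Tenascin C is a hexameric glycoprotein that marks growing septal tips and healing wounds and loosens cell adhesion. Tnc was 10.4-fold higher in hyperoxia than in room air at P29, and 1.58-fold lower at P14. In P14 room air Tnc was at log2 12.35 and 12.45, in P14 hyperoxia at 11.83, 11.68 and 11.73, in P29 room air at 8.68 and 7.45, and in P29 hyperoxia at 11.46, 11.44 and 11.45. The P29 room-air arrays stood far below all the others and apart from each other, the P29 hyperoxia arrays were tightly grouped, and the groups did not overlap at either age. At P29 the difference was 3.38 ± 0.25 (SE) on the log2 scale (limma, adjusted p = 1.64e-06), the 10th highest of 14988 genes. At P14 it was -0.66 ± 0.25 (adjusted p = 0.0451). The P14 call depended on the arrays fitted. It was lost without either P14 room-air array, any P14 hyperoxia array or any P29 hyperoxia array. The values there were -0.71 to -0.61, with adjusted p of 0.052 to 0.167, and 6 of 12 other settings lost it too. Adjusted p was 0.000126 without P29 room-air replicate 1 or 2, and 0.000568 where only the P14 groups were fitted. The main fit pools the spread of all groups, and the SD of Tnc was 0.87 in P29 room air. It was 0.07 and 0.08 in the P14 groups. The P29 difference was 4.0 without P29 room-air replicate 1 and 2.77 without replicate 2, and both passed. In whole-lung RNA, fewer cells of a type and less RNA per cell cannot be told apart. The second Tnc probe set (1456344_at) differed by -0.89 at P14 and 3.24 at P29, and passed at both ages in the fit over all probe sets. In that fit the leading probe set missed the threshold at P14 (adjusted p = 0.054).

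Periostin, a fasciclin-domain protein that links collagen to tenascin C and promotes collagen crosslinking, rose modestly at both ages. Postn was at 12.97 and 12.96 in P14 room air and at 13.28, 13.27 and 13.17 in P14 hyperoxia. At P29 it was at 12.30 and 12.39 in room air and at 12.66, 12.88 and 12.84 in hyperoxia. All hyperoxia arrays lay above the room-air arrays of their age. The rise was 0.28 ± 0.09 (SE; adjusted p = 0.0188) at P14 and 0.45 ± 0.09 (adjusted p = 0.00108) at P29. At P14 it was 0.26 to 0.28 and missed the threshold (adjusted p = 0.0531 to 0.0683) without P14 room-air replicate 1 or 2 or P14 hyperoxia replicate 1 or 2. Scaling each array to its 75th percentile gave 0.18 at P14 (adjusted p = 0.108), and the actin term gave 0.35 and 0.52 at the 2 ages (adjusted p = 0.262 and 0.0793). Postn had 1 probe set only.

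Thrombospondin 1 is a trimeric glycoprotein, also stored in platelets, that activates latent TGF-beta and restrains vessel growth through CD36 and CD47. Thbs1 was the member that rose most at P14, by 2.77-fold. Its values in P14 room air were 8.71 and 8.53, and in P14 hyperoxia 10.42, 9.87 and 9.98. In P29 room air they were 8.74 and 7.92, and in P29 hyperoxia 8.54, 9.35 and 9.33. The P14 groups were well separated, whereas at P29 hyperoxia replicate 1 lay below room-air replicate 1. The P14 difference was 1.47 ± 0.28 (SE; adjusted p = 0.00108), the 179th highest of all genes tested. At P29 it was 0.74 ± 0.28 (adjusted p = 0.0367). That second call was lost without P29 room-air replicate 2 (0.33, adjusted p = 0.378), without P29 hyperoxia replicate 2 (0.60, adjusted p = 0.107) or replicate 3 (0.61, adjusted p = 0.105), and without either P14 room-air array (0.74, adjusted p = 0.052). It was also lost in 8 of 13 other settings. With P29 hyperoxia replicate 2, the female array, as the only hyperoxia array it was 1.02. The other Thbs1 probe set (1450377_at) rose by 1.06 at P14 and differed by 0.51 at P29 (adjusted p = 0.187 over all probe sets).

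Platelet markers were examined beside Thbs1 because platelets store its protein. Over all genes 55% were called at P14 and 59.7% at P29. Of 10 platelet markers 9 passed the filter. In hyperoxia 3 of these markers were higher and 5 lower at P14, and 2 and 6 at P29. Their mean log2 level was 7.02 to 7.16 in P14 room air, 6.86 to 6.99 in P14 hyperoxia, 6.96 to 7.17 in P29 room air and 6.64 to 6.81 in P29 hyperoxia. Pf4, a platelet chemokine, rose by 0.33 and 1.04 at the 2 ages, and Ppbp, another, fell by 0.95 and 1.43. The part of platelet RNA in the Thbs1 result was not tested.

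Thrombospondin 2 is a close relative that does not activate TGF-beta but limits matrix metalloproteinase 2 and shapes collagen fibrils. Thbs2 was 1.37-fold lower in hyperoxia at P14 and 2.25-fold higher at P29. In room air it was at 8.84 and 9.03 at P14 and at 6.17 and 6.21 at P29. In hyperoxia it was at 8.33, 8.65 and 8.46 at P14 and at 7.41, 7.36 and 7.33 at P29. The 4 groups did not overlap, and both P29 groups lay below both P14 groups. The difference was -0.45 ± 0.10 (SE; adjusted p = 0.00295) at P14 and 1.17 ± 0.10 (adjusted p = 4.26e-06) at P29. Its other 2 probe sets differed by -0.34 and -0.12 at P14, where the second did not pass (adjusted p = 0.572), and rose by 1.18 and 0.75 at P29.

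SPARC binds collagen, aids collagen assembly and counteracts adhesion; its relative SPARC-like 1, or hevin, is prominent in vessel walls. Sparc stayed within a narrow range: 14.13 and 14.10 in P14 room air, 13.97, 13.97 and 13.91 in P14 hyperoxia, 13.90 and 13.84 in P29 room air, and 14.01, 13.90 and 13.99 in P29 hyperoxia. The P14 groups did not overlap and the P29 groups did. Neither difference passed the test: -0.16 (95% interval -0.32 to -0.00062, adjusted p = 0.081) at P14 and 0.09 (interval -0.069 to 0.25, adjusted p = 0.295) at P29, where scaling each array to its 75th percentile gave -0.039. The 3 Sparc probe sets disagreed. Probe set 1448392_at rose by 0.45 at P29 (adjusted p = 0.00102) and was 0.10 higher at P14 (adjusted p = 0.326), and 1458204_at fell by 0.41 at P14 (adjusted p = 0.00481) and differed by -0.08 at P29.

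Sparcl1 was the only member lower in hyperoxia at both ages among those that passed at both. It was at 12.54 and 12.37 in P14 room air and at 12.00, 11.96 and 11.85 in P14 hyperoxia. At P29 it was at 12.30 and 12.60 in room air and at 12.12, 11.98 and 12.11 in hyperoxia. Every hyperoxia array lay below every room-air array, also across ages. Sparcl1 fell by 0.52 ± 0.10 (SE; adjusted p = 0.00163) at P14 and by 0.38 ± 0.10 (adjusted p = 0.00841) at P29. Without P29 room-air replicate 2 the P29 difference was -0.23 (adjusted p = 0.115). The actin term gave -0.36 at P14 and -0.23 at P29 (adjusted p = 0.342 and 0.486). Sparcl1 had 1 probe set only. Over all genes 55% were called at P14 and 59.7% at P29. Of 8 endothelial markers 1 was higher and 3 lower in hyperoxia at P14, and 0 and 5 at P29. Their mean log2 level was 11.26 to 11.30, 10.94 to 11.07, 11.39 to 11.56 and 10.84 to 10.90 in P14 room air, P14 hyperoxia, P29 room air and P29 hyperoxia, and their part in the Sparcl1 result was not tested.

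Fibronectin carries the integrin-binding RGD site and nucleates collagen and elastic fibre assembly. Fn1 was 1.84-fold higher in hyperoxia at P29. Its P14 values were 13.40 and 13.46 in room air and 13.32, 13.17 and 13.22 in hyperoxia. Its P29 values were 12.11 and 12.28 in room air and 13.01, 13.08 and 13.12 in hyperoxia. The P29 room-air arrays were the 2 lowest of the 10, and the groups did not overlap at either age. The P29 difference was 0.88 ± 0.08 (SE; adjusted p = 9.87e-06), and that at P14 was -0.19 (95% interval -0.38 to -0.0062, adjusted p = 0.0735), which did not pass. The second, dimmer Fn1 probe set (1437218_at) rose by 1.85 at P29, more than the leading one on the log2 scale, and differed by -0.22 at P14 (adjusted p = 0.27).

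Versican is a large chondroitin sulfate proteoglycan that binds hyaluronan and swells the provisional matrix of growing and injured lung. Vcan was 2.96-fold higher in hyperoxia at P29 and 1.44-fold lower at P14. The P14 arrays read 9.59 and 9.84 in room air and 9.23, 9.10 and 9.24 in hyperoxia. The P29 arrays read 6.63 and 5.79 in room air and 7.61, 7.99 and 7.74 in hyperoxia. Groups did not overlap at either age, and the 2 P29 room-air arrays differed from each other by more than any other pair of a group. The P29 difference was 1.57 ± 0.20 (SE; adjusted p = 6.27e-05), 1.98 without P29 room-air replicate 1 and 1.15 without replicate 2, and both passed. The P14 difference of -0.53 ± 0.20 (adjusted p = 0.0418) was -0.65 to -0.40 and missed the threshold (adjusted p = 0.0537 to 0.221) without either P14 room-air array, any P14 hyperoxia array or P29 hyperoxia replicate 3, and 4 of 12 other settings lost it. Without P29 room-air replicate 1 or 2 the adjusted p at P14 was 0.00445. Of 8 Vcan probe sets 5 lay below the filter. The other 2 above it differed by -0.23 and -0.13 at P14 (adjusted p = 0.419 and 0.405) and rose by 1.36 and 0.83 at P29. In that fit over all probe sets the leading one had adjusted p = 0.0505 at P14. Averaging all 8 probe sets, dim ones included, gave 0.41 at P29.

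**Figure D2:**
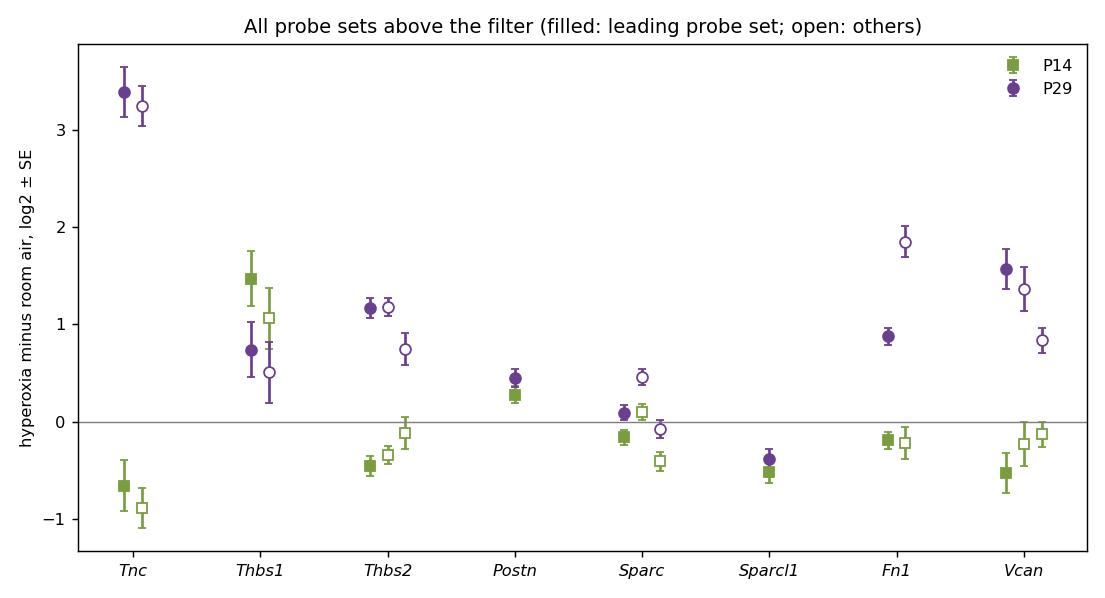
Hyperoxia minus room air (log2, with SE) at P14 (squares) and P29 (circles) for the 17 probe sets above the filter, with the leading probe set of each gene filled and the others open. The Tnc probe sets nearly coincide, the second Fn1 probe set shows 1.85 at P29 against 0.88 for the leading one, and the Sparc probe sets lie on both sides of 0 at P14.

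At P14, of the 8 measured genes 2 were higher in hyperoxia (Postn and Thbs1), 4 were lower (Tnc, Thbs2, Sparcl1 and Vcan) and 2 did not pass. Over all genes 55% were called, 32.3% higher and 22.8% lower, so a count of 6 of 8 is not far from the background. The median difference was -0.32 for the 8 genes and 0.04 for all genes. The groups did not overlap for 8 of 8, against 71.3% of all genes. The count was 3 without P14 room-air replicate 1 or 2 or P14 hyperoxia replicate 1 or 2 (Thbs1, Thbs2 and Sparcl1 passed without any single array), and 0 with the actin difference as a term. Under that term Thbs1 was at 1.94, Thbs2 at -0.55, Postn at 0.35, Vcan at -0.48, Sparcl1 at -0.36 and Tnc at -0.24 (adjusted p = 0.0811 to 0.808). The actin difference did not overlap between room-air and hyperoxia arrays, so this fit cannot cleanly separate it from oxygen. With each array scaled to its 75th percentile, 1 was higher and 6 lower, and the share of higher calls among all called genes was 45% in place of 58.6%. The 6 then included Sparc and Fn1 (-0.26 and -0.29), which an intensity trend with a robust fit also called (adjusted p = 0.0162 and 0.0252).

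At P29, 6 were higher (Tnc, Postn, Thbs1, Thbs2, Fn1 and Vcan), 1 was lower (Sparcl1) and Sparc did not pass. Over all genes 59.7% were called, 34.2% higher and 25.6% lower. The median was 0.81 for the 8 genes against 0.04 for all genes, and groups did not overlap for 6 of 8, against 74.3% of all genes. With the actin difference as a term, which cannot be cleanly separated from oxygen here either, 4 passed. They were Tnc at 3.77 (adjusted p = 0.00295), Thbs2 at 1.08 (0.0109), Fn1 at 0.86 (0.0134) and Vcan at 1.61 (0.0344). With Y-linked level as a term these 4 were at 3.32, 1.15, 0.90 and 1.71. With the female array as the only P29 hyperoxia array they were at 3.38, 1.16, 0.89 and 1.78, Postn at 0.54, Thbs1 at 1.02 and Sparcl1 at -0.47; this arm has 1 array, which the fit assumes to vary like the other groups. Scaling to the 75th percentile gave 5 higher and 1 lower, with 41.2% of all calls higher in place of 57.2%.

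**Figure D3:**
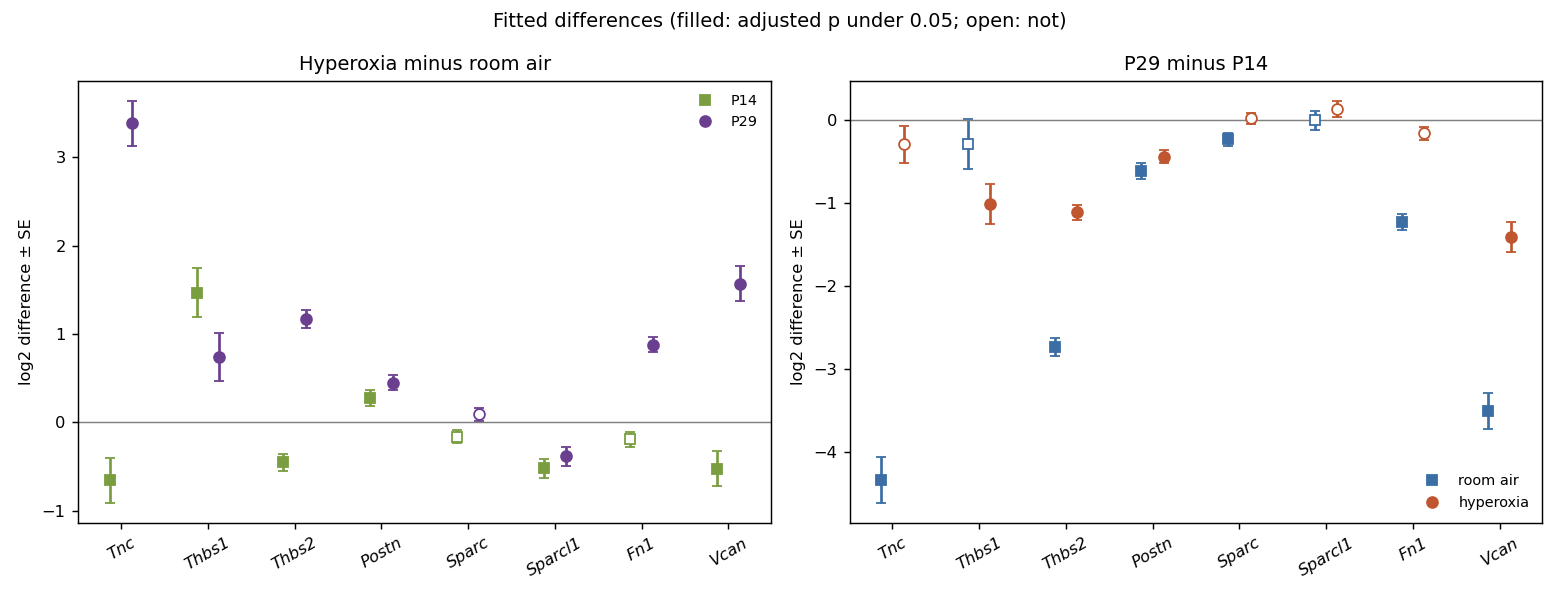
Fitted log2 differences with SE for 8 genes: hyperoxia minus room air at P14 (squares) and P29 (circles) on the left, and P29 minus P14 in room air (squares) and hyperoxia (circles) on the right; filled symbols passed the test. Tnc reaches 3.38 on the left at P29 and -4.34 on the right in room air.

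The effect of hyperoxia differed between the ages for 4 of the 8 genes, by the test of the difference itself. The P29 effect exceeded the P14 effect by 4.04 ± 0.36 (SE) for Tnc (adjusted p = 3.67e-05), the 2nd highest of 14988 genes. It did so by 1.62 ± 0.14 for Thbs2 (adjusted p = 3.41e-05), 1.07 ± 0.12 for Fn1 (adjusted p = 0.000152) and 2.09 ± 0.28 for Vcan (adjusted p = 0.000424). In this test 22.5% of all genes were called, 11% higher and 11.6% lower. The median was 0.66 for the 8 genes and -0.00095 for all genes. These 4 calls held without any single array, with the replicate block and with either term. Without P29 room-air replicate 1 the Tnc value was 4.66, and without replicate 2 it was 3.42. The other 4 genes did not pass: Postn at 0.17 (95% interval -0.097 to 0.44), Thbs1 at -0.73 (-1.58 to 0.13), Sparc at 0.25 (0.026 to 0.48, adjusted p = 0.104) and Sparcl1 at 0.14 (-0.19 to 0.46).

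In room air 6 of the 8 genes were lower at P29 than at P14. Tnc fell by 4.34 ± 0.28 (SE; adjusted p = 5.56e-07), a 20.2-fold lower level and the 3rd largest fall of all genes tested. Vcan fell by 3.51 ± 0.22 (11.4-fold, adjusted p = 4.84e-07), Thbs2 fell by 2.74 ± 0.11 (6.68-fold, adjusted p = 3.59e-08) and Fn1 fell by 1.23 ± 0.09 (2.35-fold, adjusted p = 1.74e-06). Postn fell by 0.62 ± 0.09 (adjusted p = 0.000321) and Sparc fell by 0.24 ± 0.08 (adjusted p = 0.0338). In all, 0 were higher and these 6 lower, against 22.2% and 19.1% of all genes (41.3% in either direction). The groups did not overlap for these 6, against 69% of all genes. Thbs1 at -0.29 (95% interval -0.95 to 0.38) and Sparcl1 at -0.0073 (-0.26 to 0.24) did not pass. The Sparc call was lost without any 1 of the 4 room-air arrays or P14 hyperoxia replicate 2 (-0.27 to -0.21, adjusted p = 0.0528 to 0.148). It was also lost in 6 of 12 other settings. In the fit over all probe sets no Sparc probe set passed (-0.26 to -0.18, adjusted p = 0.0509 to 0.154). Sex and age cannot be told apart in room air, where the P14 arrays were male and the P29 arrays female.

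In hyperoxia, P29 arrays were set against P14 arrays in the same way. Vcan fell by 1.41 ± 0.18 (SE; adjusted p = 0.000218), Thbs2 fell by 1.12 ± 0.09 (adjusted p = 1.14e-05), Thbs1 fell by 1.02 ± 0.25 (adjusted p = 0.0105) and Postn fell by 0.45 ± 0.08 (adjusted p = 0.00163). Of the 8 genes 0 were higher and 4 lower, against 15.4% and 11.7% of all genes (27.1% in either direction). The groups did not overlap for 6 of 8 (these 4, Tnc and Fn1), against 45.3% of all genes. Tnc at -0.30 (95% interval -0.79 to 0.20, adjusted p = 0.372), Fn1 at -0.16 (-0.33 to 0.0027), Sparc at 0.02 (-0.13 to 0.16) and Sparcl1 at 0.13 (-0.076 to 0.34) did not pass. For Tnc, adjusted p was 0.0126 without P29 room-air replicate 1 or 2, and 0.0122 where only the 2 hyperoxia groups were fitted. The second Fn1 probe set fell by 0.91 (adjusted p = 0.00151). These comparisons share arrays with the hyperoxia comparisons, so their values are set side by side and not as separate support.

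Ordered by group mean, Tnc ran from 12.40 ± 0.07 (SD, n = 2) in P14 room air to 11.75 ± 0.08 (n = 3) in P14 hyperoxia, 11.45 ± 0.01 (n = 3) in P29 hyperoxia and 8.07 ± 0.87 (n = 2) in P29 room air, and the middle pair did not pass as different. Fn1 had the same order, from 13.43 ± 0.04 and 13.23 ± 0.08 to 13.07 ± 0.05 and 12.19 ± 0.13, and neither of its first 2 steps passed. Vcan (9.72 ± 0.17, 9.19 ± 0.08, 7.78 ± 0.19 and 6.21 ± 0.59) and Thbs2 (8.93 ± 0.14, 8.48 ± 0.16, 7.36 ± 0.04 and 6.19 ± 0.03) also had this order, and each step between neighbours passed. The first Vcan step was lost without some single arrays. Thbs1 and Postn had other orders, both with P14 hyperoxia highest (10.09 ± 0.29 and 13.24 ± 0.06) and P29 room air lowest (8.33 ± 0.58 and 12.34 ± 0.07). P29 hyperoxia lay above P14 room air for Thbs1 and below it for Postn. The room-air groups of Thbs1 did not pass as different. Sparcl1 was highest in both room-air groups (12.46 ± 0.12 at P14 and 12.45 ± 0.22 at P29), which did not pass as different, and lower in both hyperoxia groups (11.94 ± 0.08 and 12.07 ± 0.08), which did not either. Sparc ran from 14.11 ± 0.02 in P14 room air to 13.87 ± 0.04 in P29 room air, with the hyperoxia groups between them.

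Across the 10 arrays, which share groups, Thbs2 and Vcan correlated at r = 0.980, Tnc and Fn1 at 0.957, and Thbs1 and Sparcl1 at -0.838. By the same measure, the genes most like Tnc were Eln, which encodes elastin (0.995), and 1500009L16Rik (0.990). Most like Thbs2 were Pimreg (0.995) and the membrane protease gene Mmp14 (0.994), and most like Fn1 were Rras2 and the metalloprotease gene Adam12 (0.992 for both). Most like Vcan were Pdgfrl (0.991) and Lhfpl2 (0.990), and most like Thbs1 were Scfd1 (0.975) and Dusp6, an ERK phosphatase (0.971). Postn was nearest to Ptbp2 (0.985) and Zfp644 (0.983), Sparcl1 to Plgrkt (0.988) and Cadm3 (0.978), and Sparc to Ube2w (0.937) and A2m (0.933). These values describe the arrays and carry no test.

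Of 18 other matricellular genes, 16 passed the filter. In room air 7 of these were higher at P29 than at P14 and 3 lower, against 22.2% and 19.1% of all genes. At P14, 6 were higher in hyperoxia and 2 lower (median 0.04), and at P29, 5 and 5 (median -0.11). Over all genes 32.3% were called higher and 22.8% lower at P14, and 34.2% and 25.6% at P29. These shares also apply to the gene lists below. Fstl1, a secreted SPARC relative, rose by 0.34 ± 0.08 (SE) at P14 and by 2.07 ± 0.08 at P29 (adjusted p = 3.44e-08), although the mean of its probe sets gave -0.02 at P14. Ccn2, the connective tissue growth factor gene, rose by 1.47 ± 0.14 and 0.99 ± 0.14. At P29 Ccn4, a Wnt-induced relative of Ccn2, rose by 1.53 ± 0.14 and Tnxb, another tenascin, fell by 1.60 ± 0.14.

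Of 16 integrins and other receptors of these proteins, 6 were higher and 7 lower at P14, and 7 and 6 at P29, with medians of -0.06 and -0.01. Itgb8, the beta subunit of the TGF-beta-activating integrin alpha v beta 8, rose by 0.99 ± 0.19 (SE) at P14 and was called higher at P29, where its room-air mean of 4.48, against 6.85 in hyperoxia, lay under the filter level of 5. Itga5, a subunit of the classical fibronectin receptor, fell by 1.23 ± 0.13 and 0.87 ± 0.13. Cd36, a thrombospondin receptor, fell by 0.75 ± 0.10 and 1.59 ± 0.10. Itgav rose by 0.30 and 1.09 on its leading probe set, but its probe set of largest variance gave -1.63 and -1.03, so its direction is uncertain.

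Versican acts in complexes with hyaluronan, and 13 genes of their synthesis, linkage and cleavage were measured. Of these 7 were higher and 1 lower at P14, and 8 and 1 at P29, with medians of 0.55 and 0.61 against 0.04 for all genes at both ages. Hmmr, a hyaluronan receptor that is also a spindle protein, rose by 0.56 ± 0.16 (SE) and 1.40 ± 0.16. Adamts9, a versican-cleaving protease, rose by 1.30 ± 0.13 at P29. Hapln1, the link protein that fastens versican to hyaluronan, was called higher at both ages, with mean log2 levels of 6.24 and 6.96 in hyperoxia, but its room-air means of 4.59 and 4.35 lay under the filter level of 5, so the size of its rise is uncertain. Adamts20, a related protease, was called higher at P14, although both means there (3.52 in room air and 4.92 in hyperoxia) lay under that level.

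All 7 small leucine-rich proteoglycans, which bind collagen fibrils, passed the filter; 4 were higher and 3 lower at P14, and 3 and 3 at P29. Fmod rose by 1.08 ± 0.11 (SE) and 1.99 ± 0.11, and Prelp fell by 0.90 ± 0.09 and 2.63 ± 0.09. Lum rose by 1.69 ± 0.16 and 0.63 ± 0.16. Dcn, the decorin gene, rose by 1.17 ± 0.13 at P14 and fell by 0.53 ± 0.13 at P29. Of 13 genes of matrix assembly and processing 12 were measured, with 4 higher and 5 lower at P14 and 5 and 0 at P29. Bmp1, the procollagen C-proteinase, fell by 0.54 ± 0.09 and then rose by 0.75 ± 0.09. Loxl1, an elastin crosslinker, fell by 0.30 ± 0.10 and rose by 1.06 ± 0.10. At P14 Tgm2, a matrix transglutaminase, rose by 0.55 ± 0.07, but another of its probe sets gave -0.71. Tll1, a Bmp1 relative, was called higher at P14, from a room-air mean of 4.57, under the filter level, to 5.84.

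**Figure D4:**
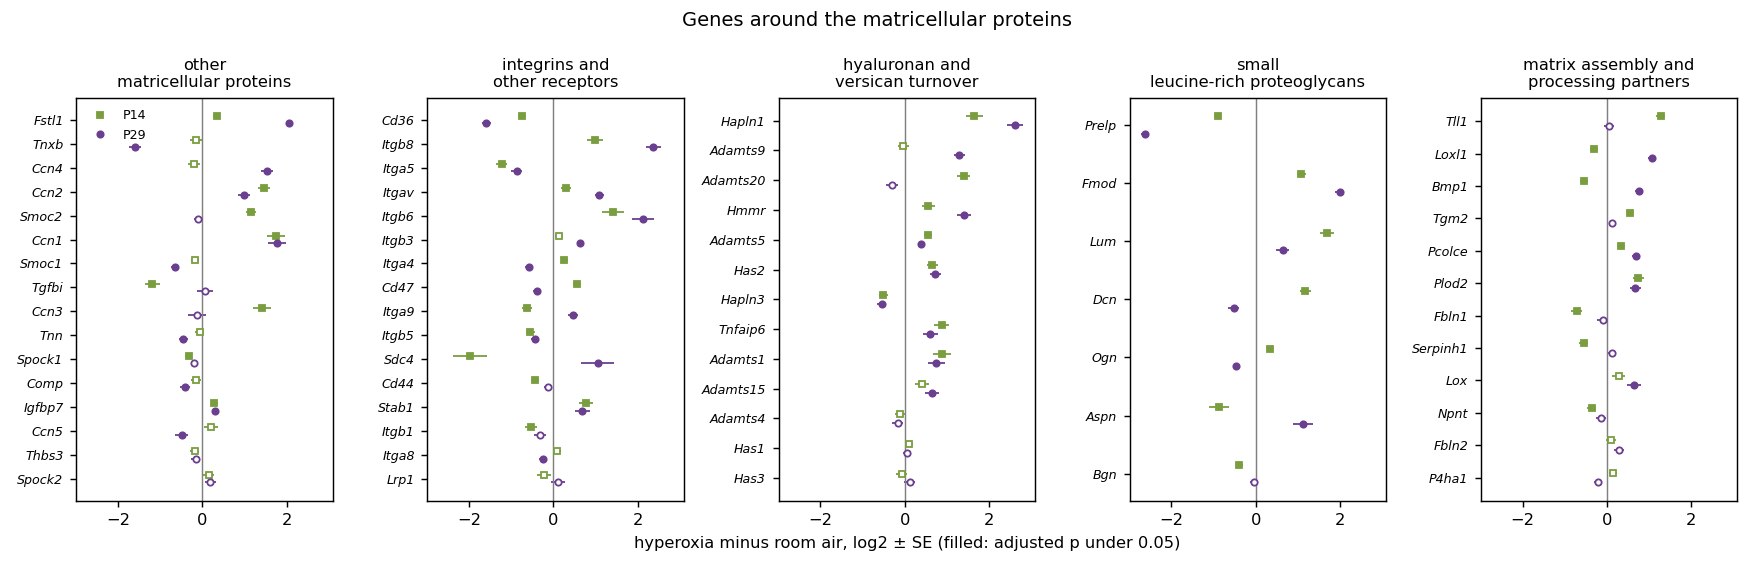
Hyperoxia minus room air (log2, with SE) at P14 (squares) and P29 (circles) for the genes of 5 pathway lists that passed the filter; filled symbols passed the test. In the hyaluronan and versican panel most filled symbols lie to the right of 0, with Hmmr at 0.56 and 1.40, while the other panels hold both directions.

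Cell-type markers were counted in the same comparisons, in which 32.3% of all genes were called higher and 22.8% lower at P14. At P29 these shares were 34.2% and 25.6%. Of 10 fibroblast markers 0 were higher and 5 lower at P14, and 6 were higher and 2 lower at P29; the 2 were Pi16 and Pdgfra. Their mean log2 level was 11.09 to 11.17 in P14 room air, 10.71 to 10.79 in P14 hyperoxia, 10.46 to 10.53 in P29 room air and 10.75 to 10.78 in P29 hyperoxia. Of 6 proliferation markers 4 were higher at P14 and 6 at P29 and 0 lower, with levels of 8.72 to 9.02, 9.20 to 9.55, 6.26 to 6.62 and 8.82 to 8.87 in the same order of groups, so that P29 room air was lowest here too. The 6 mesothelial markers were higher in hyperoxia at P14 (6 of 6), and at P29 1 was higher and 1 lower; their levels were 7.10 to 7.54, 8.42 to 8.57, 8.15 to 8.16 and 7.83 to 8.32. Macrophage markers (12) gave 2 higher and 3 lower at P14 and 3 and 5 at P29. Smooth muscle and myofibroblast markers (8) gave 2 and 0, then 1 and 3, and alveolar type 2 markers (6 of 7) gave 0 and 3, then 0 and 4. Cartilage markers (6 of 9 above the filter) gave 1 and 2, then 1 and 5; Hapln1 is among them, and Matn1, Matn3 and Cnmd lay below the filter. Cardiac muscle markers (6) gave 2 and 0, then 1 and 3. The part of these cells in the members' differences was not tested.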

How the data were processed

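Total RNA of 10 whole-lung samples was measured on Affymetrix arrays. The authors deposited log2 values for 45101 probe sets; per the submitters' processing notes, they used Partek 6.4 and GCRMA. How these were set is not given in the sources used here. Groups and replicate numbers come from the sample titles.

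By the platform annotation 34945 probe sets had 1 symbol and were used, 932 had several and 9211 had none. Entrez numbers of 34741 matched RefSeq (GRCm38.p6), and 0 symbols changed. Control probe sets were left out. The probe set with the highest mean stands for a gene. The 14988 genes that reached log2 5 on 2 arrays or more went into limma 3.58.1 under R 4.3.3 (lmFit, then eBayes, on 4 group means, with 6 residual and 5.09 prior degrees of freedom). The 5 contrasts were tested two-sided with Benjamini-Hochberg adjustment over these genes and a threshold of 0.05; p-values of other probe sets were adjusted over all probe sets fitted. SE is that of the contrast, SD that between arrays.

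The 9 members, the 5 pathway lists and the 10 marker lists were chosen with earlier results of these data known. Named are all members, per pathway list up to 4 genes and per marker list up to 3 of smallest p in either hyperoxia comparison, and per member the 2 genes of highest correlation. In simulated data of 14988 genes, 100 were changed by 0.5 and 100 by 1. For the P14 comparison 52% and 93% of these were called (11 false of 156 calls). For P29 54% and 90% were called (10 false of 154 calls). Far more genes were called in the data, so these rates do not carry over to them. Alternatives were other filters, probe-set rules, scalings, fits, array weights, a replicate block, terms for the actin difference and Y-linked level, each array left out, and the female P29 hyperoxia array alone, the last chosen after the data were seen.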

Additional observations from a re-analysis of the deposited data

Results flagged for a closer look

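The hyperoxia effects of 4 genes differed between the ages, by the limma test of the difference itself. The P29 effect minus the P14 effect was 4.04 for Tnc, 1.62 for Thbs2, 1.07 for Fn1 and 2.09 for Vcan on the log2 scale. For Tnc, Thbs2 and Vcan the 2 effects had opposite signs and both passed the test, although the P14 calls of Tnc and Vcan were lost without some single arrays. For Fn1 the P29 effect alone passed. The P29 room-air arrays were the lowest of the 10 for all 4 genes, and both had Xist and lacked the Y-linked signal seen on male arrays. The part of sex was not tested beyond the fit with a Y-linked term and that with the female P29 hyperoxia array alone.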

How the results depend on the processing

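Member differences were recomputed under every alternative, 880 values in all: 795 kept their direction and side of the threshold, 60 lost a call, 12 gained one and 13 changed sign, none of these 13 being called on either side. For the P14 comparison 6 members passed, 0 with the actin term (where Tnc shrank to -0.24 and Thbs1, Thbs2 and Postn were at 1.94, -0.55 and 0.35) and 3 to 6 with an array left out. For P29 7 passed, 4 with the actin term and 5 to 7 with an array left out. The count for the difference of effects was 4 to 5. Sparc was also called there with the mean of probe sets (0.31, adjusted p = 0.0398). It was called too with an intensity trend and robust fit (0.25, adjusted p = 0.0198). The counts for age were 5 to 6 in room air and 4 to 5 in hyperoxia. These counts stayed within 1.5 times under all alternatives. With the actin term the genes called fell from 8250 to 1391 at P14 and from 8950 to 2905 at P29. Actin values did not overlap between room-air and hyperoxia arrays, so that term cannot cleanly separate the actin difference from oxygen. Calls lost or kept under it are given as values only. With the Y-linked term those called for age in room air fell from 6195 to 3996. The room-air arrays were all male at P14 and all female at P29, so this term cannot cleanly separate sex from age there.

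Signs changed as follows. With the probe set of largest variance, Sparc was at 0.10, Itgav at -1.63 and Tgm2 at -0.71 at P14, and Itgav was at -1.03 at P29. With the mean of probe sets, Fstl1 was at -0.021 and Itgav at -0.38 at P14, and Itgav was at -0.066 at P29. With the 75th percentile scaling, Sparc was at -0.039 at P29 and at -0.00073 for age in hyperoxia. For age in room air Sparcl1 was at 0.0068 with quantile normalization, 0.0073 with the 75th percentile, 0.018 with the actin term and 0.079 with the Y-linked term. With an array left out, Sparcl1 ranged from -0.16 to 0.145 and Thbs1 from -0.70 to 0.12 for age in room air, Sparc from -0.0068 to 0.0495 for age in hyperoxia, and Sparcl1 from -0.015 to 0.29 for the difference of effects. The cause was not tested.

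Replicate numbers did not pair the arrays: deviations from group means correlated at -0.10 to 0.20 over 13 same-numbered pairs and at -0.16 to 0.15 over 24 others. With a replicate block, Tnc at P14 was at -0.65 (adjusted p = 0.0578), Vcan at P14 at -0.53 (0.079) and Thbs1 at P29 at 0.70 (0.079), and no other member call was lost. With 2 or 3 arrays a group, differences of 0.5 were often missed in simulated data. Far fewer genes changed there than were called here (8250 at P14 and 8950 at P29). The threshold on unadjusted p is looser with more calls, so that rate does not carry over to these data.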
